A study of Homo sapiens with 18 samples.

Results

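The glycolysis and hypoxia-response genes described here are 33 protein-coding genes, chosen by symbol from the GENCODE annotation of GRCh38 among the 61541 genes listed in the count tables of A549 cells treated with sodium propionate (SP). The 33 genes fall into 7 roles. These are glucose entry (SLC2A1, SLC2A3), the preparatory steps of glycolysis (HK1, HK2, GPI, PFKL, PFKM, PFKP, ALDOA, ALDOC, TPI1), control of fructose 2,6-bisphosphate (PFKFB3, PFKFB4), the payoff steps (GAPDH, PGK1, PGAM1, ENO1, PKM), the fate of pyruvate and lactate (LDHA, LDHB, PDK1), hypoxia-inducible effectors (CA9, CA12, VEGFA, ADM, BNIP3, BNIP3L, EGLN3, NDRG1, ANKRD37, P4HA1) and the hypoxia-inducible factor (HIF) alpha subunits (HIF1A, EPAS1). All 33 passed the filter on low counts in both tables, so none was left out of a test.

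Glycolysis splits glucose into pyruvate in the cytosol: the preparatory enzymes spend ATP to trap and cleave the sugar, and the payoff enzymes recover ATP and NADH. Lactate dehydrogenase then converts pyruvate to lactate, while pyruvate dehydrogenase, which PDK1 inhibits, passes it to mitochondria. When oxygen falls, the HIF alpha proteins escape hydroxylation and degradation and induce glucose transporters, glycolytic enzymes and secreted or membrane proteins such as VEGFA and CA9, and this program is often active in lung carcinoma.

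A549 is an established human lung adenocarcinoma cell line, carried here without genetic change (genotype WT) in high-glucose medium with serum. RNA was sequenced in 2 experiments, each deposited as its own table of 9 libraries. One holds untreated cells at 24 h (Control 24 h) and cells given 5 mM SP for 3 h or 24 h. The other holds untreated cells at 3 days (Control 3 days) and cells under 5 mM SP during 3 or 12 days. Every group has 3 libraries of this 1 line. The study calls the RNA-seq libraries of the 3 and 24 h experiment biological replicates, and for the 3 and 12 days experiment neither its text nor the labels say whether libraries came from separate cultures, so there the p-values measure a spread between libraries that may be technical. SP 3 h was set against a 24 h control and SP 12 days against a 3 days control, so in these comparisons SP and time in culture cannot be told apart. The comparisons within a table share their control libraries. No group grown at low oxygen is among the samples analysed here.

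Libraries held 14187401 to 43765330 counted reads. The 33 genes took 1.22% to 1.65% of the reads in the 3 and 12 days experiment and 1.95% to 2.09% in the 3 and 24 h experiment. Epithelial keratins KRT8 and KRT18 and the A549 genes ALDH1A1 and AKR1B10 were abundant in all 18 libraries (KRT8 3691 to 8665 reads per 1000000 reads, CPM), while the lymphocyte gene CD3E was at 0 in each and the leukocyte gene PTPRC did not exceed 0.0956 CPM. EPCAM was low, with a mean of 6.08 CPM in Control 24 h and 5.76 at SP 3 h, and CDH1 had 34.7 in Control 24 h. KRT8, KRT18, KRT19, CDH1 and EPCAM summed to 6850 to 8374 CPM in Control 24 h and 12285 to 13856 at SP 24 h. At SP 3 h the sum was 6674 to 8457. It was 5999 to 7731 CPM in Control 3 days, 11670 to 12545 at SP 3 days and 11013 to 15351 at SP 12 days. The 4 A549 genes (with AKR1C1 and NQO1) summed to 9827 to 12305 CPM in Control 24 h and 7264 to 7735 at SP 24 h. At SP 3 h their sum was 9027 to 10589. In Control 3 days it was 13325 to 13850 CPM, with 7661 to 7871 at SP 3 days and 6718 to 7764 at SP 12 days. Markers of other cell types were checked as 3 lists of 3 genes. The fibroblast list (COL1A1, COL3A1 and DCN) summed to 5.88 to 22.0 CPM in Control 24 h, 18.2 to 38.1 at SP 3 h and 61.3 to 89.3 at SP 24 h, and to 14.04 to 14.97 CPM in Control 3 days, 58.4 to 69.4 at SP 3 days and 30.0 to 55.3 at SP 12 days. Nearly all of it was COL1A1, with DCN at or below 0.299 CPM. The blood cell list (CD14, CD3E and PTPRC) was almost all CD14, with 2.95 to 3.91 CPM in Control 24 h, 2.28 to 4.23 at SP 3 h, 14.2 to 16.4 at SP 24 h, 16.2 to 17.8 in Control 3 days, 34.1 to 37.4 at SP 3 days and 12.9 to 25.9 at SP 12 days. The endothelial list (CDH5, PECAM1 and VWF) did not exceed 2.88 CPM in any library. The fibroblast list thus lay above control at 24 h, 3 days and 12 days and overlapped it at 3 h. CD14 lay above control at 24 h and 3 days and overlapped it at 3 h and 12 days. The part of these markers in the results was not tested. As in any bulk sample, a lower value can come from fewer cells with a transcript or less of it per cell, which cannot be told apart. In the 3 and 12 days experiment, SP 12 days replicate 3 stood apart from the rest of its group, and results that turn on it are given with and without it. Libraries of the 3 and 24 h experiment differed more within groups, with a median SE of the log2 fold changes of 0.20 against 0.13.

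A gene passed a comparison at an adjusted p under 0.05 in edgeR's quasi-likelihood test, with adjustment over all genes tested in that comparison. At 3 h, 6 of the 33 genes passed, 5 higher and 1 lower, where 11.5% of all tested genes passed (7.39% higher and 4.11% lower). At 24 h, 11 passed, 8 higher and 3 lower, against 28.8% of all genes (16.8% higher and 12% lower). At 3 days, 21 passed, 13 higher and 8 lower, against 48.6% of all genes (25.2% higher and 23.3% lower). At 12 days, 18 passed, 11 higher and 7 lower, against 49.8% (26.4% higher and 23.4% lower). The members' shares were 18.2%, 33.3%, 63.6% and 54.5% in that order. The median log2 fold change of the 33 genes was 0.08, 0.18, 0.04 and 0.08, against 0.00, −0.01, −0.02 and −0.00 over all genes tested. Under the stricter thresholds of the study (adjusted p under 0.0001 and a fold of at least 2), 0 genes of the set were called at 3 h and 24 h, 3 higher and 1 lower at 3 days, and 3 higher and 2 lower at 12 days. The background of these calls was 0% at 3 h, 0.685% at 24 h (0.622% higher and 0.0633% lower), 8.44% at 3 days (6.58% higher and 1.86% lower) and 9.11% at 12 days (6.88% higher and 2.23% lower). SP and control libraries did not overlap for 8, 18, 25 and 18 of the 33 genes at the successive times, against 27.3%, 44.4%, 61.2% and 55.9% of all genes.

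The split of directions depended on one correction. With each library's trend on GC content and length removed, 8 genes were higher and 11 lower at 24 h, 11 and 12 at 3 days, 9 and 11 at 12 days, and 5 and 2 at 3 h. Over all genes the correction likewise gave fewer higher than lower calls, 14.3% and 24.6% at 24 h, 21.3% and 33.4% at 3 days, 22.7% and 32.2% at 12 days, and 8.77% and 9.05% at 3 h. With it the median over all genes tested, on the log2 scale, went to −0.13 at 24 h, −0.12 at 3 days and −0.10 at 12 days. Where it ended the call of a gene named below, its value stands beside the gene. Calls that it added, higher or lower, are given for some genes only.

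Of the 33 genes, 24 passed in at least 1 comparison with control (of all genes tested in both tables, 67.6% did) and 9 in none (ALDOA, BNIP3, EPAS1, GAPDH, PDK1, PFKL, PGAM1, PKM and TPI1). SLC2A3, HK1 and HK2 were the 3 that rose in all 4 comparisons, as 3.58% of those genes did. At both 3 and 12 days, 10 genes rose and 7 fell (CA9, CA12, VEGFA, PFKFB3, LDHA, PGK1 and GPI), and 0 passed in opposite directions, where 20.9%, 17.6% and 0.135% of all genes did so. The plot of fold changes by role shows these groups.

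**Figure D1:**
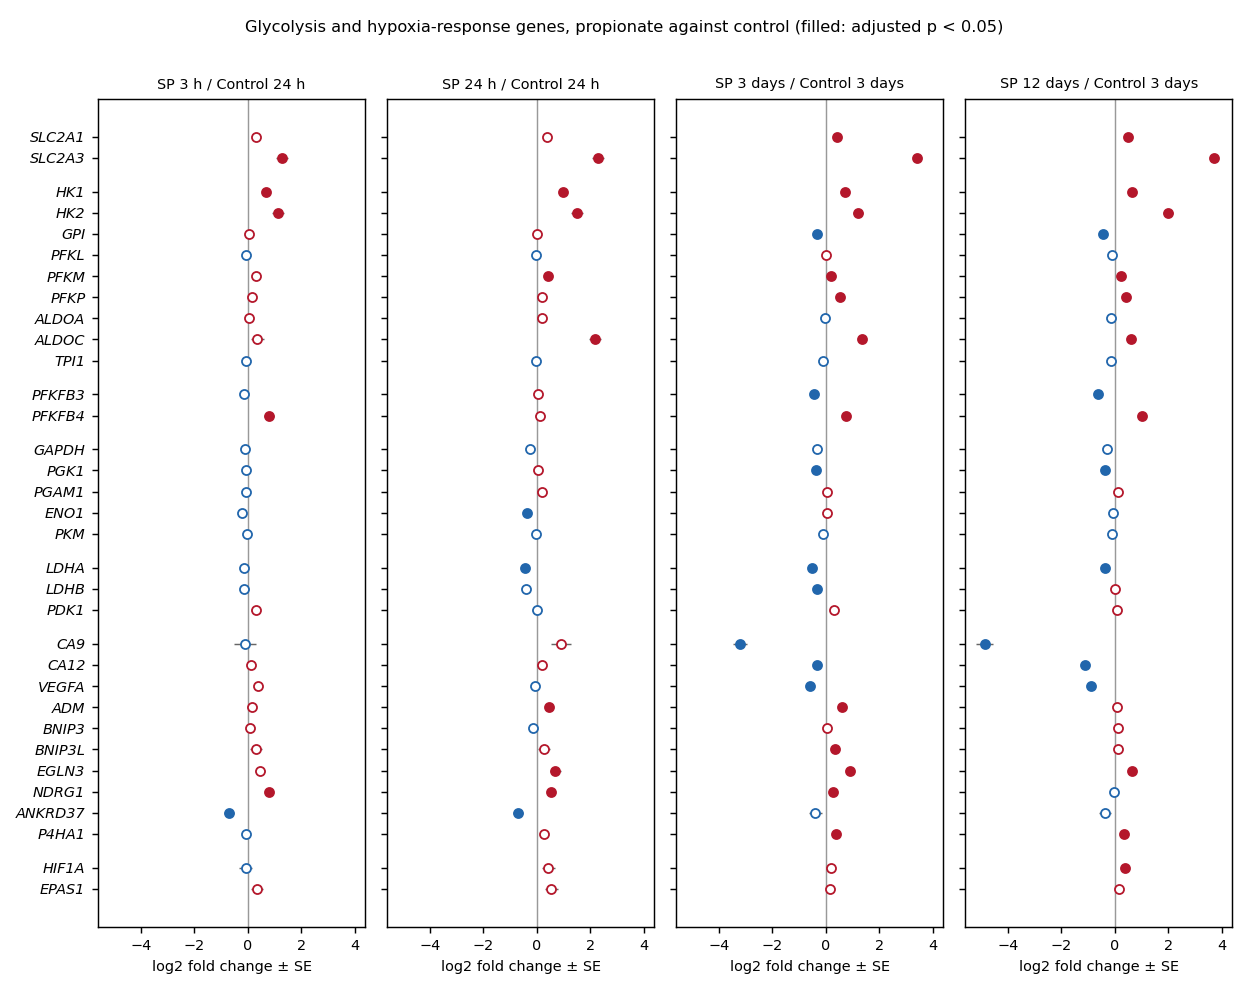
Log2 fold change of the 33 genes (rows, grouped by role) in each comparison of SP with control; points are edgeR estimates, bars their standard errors, filled points adjusted p under 0.05, red above and blue below 0. SLC2A3 reached 3.43 at 3 days and 3.71 at 12 days, CA9 −3.22 and −4.87, and the payoff enzymes GAPDH to PKM stayed between −0.38 and 0.18.

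Promoter sequences from RefSeq (GRCh38.p14, 250 bases before to 50 after a start site, 300 in all) were found by symbol for 29 of the 33 genes, in 52 entries. HIF binds a core of ACGTG or GCGTG, and both were searched on both strands, each with its reverse complement. At least 1 copy stood in 35 of the 52 entries (67.3%) against 48.4% of all 35116 entries, and in any entry of 27 of the 29 genes, EGLN3 and PGAM1 being the other two. Entries of 1 gene can overlap, as the 7 of PFKM do, so these shares are not over independent sequences. The share of all genes with a copy in any entry was not computed. A gene with several entries has more chances to hold a copy, so 27 of 29 has no background here. Shown are 4 promoters, of 2 genes that rose (HK2 and ALDOC) and of 2 that fell at 3 and 12 days (CA9 and LDHA), with the motif copies in capitals. HK2 and LDHA have 2 entries each, and the one shown is at the upstream start.
HK2, chr2:74833877-74834176, plus strand: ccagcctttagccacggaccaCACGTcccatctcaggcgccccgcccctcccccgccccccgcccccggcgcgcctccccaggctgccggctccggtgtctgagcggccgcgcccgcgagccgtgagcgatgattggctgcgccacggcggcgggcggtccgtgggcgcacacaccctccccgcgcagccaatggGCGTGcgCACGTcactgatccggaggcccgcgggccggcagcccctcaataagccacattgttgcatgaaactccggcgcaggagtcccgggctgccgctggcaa
ALDOC, chr17:28576846-28577145, minus strand: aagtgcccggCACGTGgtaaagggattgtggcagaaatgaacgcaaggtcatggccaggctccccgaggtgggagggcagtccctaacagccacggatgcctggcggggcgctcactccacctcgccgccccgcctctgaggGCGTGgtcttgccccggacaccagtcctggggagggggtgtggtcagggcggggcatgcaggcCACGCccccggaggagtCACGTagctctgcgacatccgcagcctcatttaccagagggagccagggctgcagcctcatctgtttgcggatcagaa
CA9, chr9:35673678-35673977, plus strand: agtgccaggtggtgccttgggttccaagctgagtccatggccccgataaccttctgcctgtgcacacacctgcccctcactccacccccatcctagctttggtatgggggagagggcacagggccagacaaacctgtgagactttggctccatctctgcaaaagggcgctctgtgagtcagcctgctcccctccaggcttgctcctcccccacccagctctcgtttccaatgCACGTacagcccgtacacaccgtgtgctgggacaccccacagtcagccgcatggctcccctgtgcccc
LDHA, chr11:18394313-18394612, plus strand: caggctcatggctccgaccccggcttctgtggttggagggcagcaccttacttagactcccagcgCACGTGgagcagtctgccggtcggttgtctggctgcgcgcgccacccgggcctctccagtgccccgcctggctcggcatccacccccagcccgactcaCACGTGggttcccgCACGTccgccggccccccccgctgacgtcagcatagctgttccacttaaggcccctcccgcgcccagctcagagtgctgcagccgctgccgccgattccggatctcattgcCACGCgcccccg
These windows hold 3 copies in HK2, 5 in ALDOC, 1 in CA9 and 6 in LDHA, counting both strands, so that a palindromic CACGTG counts as 2. The entries not shown hold 6 copies in HK2 and 1 in LDHA. At least 3 copies stood in 10.1% of all entries and at least 5 in 1.98%.

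SLC2A3 (ENSG00000059804, chromosome 12, 7919230 to 8019007, minus strand) encodes GLUT3, a high-affinity glucose transporter, and rose most of the 33 genes. SLC2A3 was at 25.1, 35.6 and 25.9 CPM in Control 24 h, 62.1, 89.3 and 61.3 CPM at SP 3 h and 108, 173 and 144 CPM at SP 24 h. In the other experiment it was at 40.0, 45.7 and 38.9 CPM in Control 3 days, 464, 451 and 428 CPM at SP 3 days and 565, 550.1 and 513 CPM at SP 12 days. Every SP library exceeded every control library of its experiment, and the SP 12 days libraries all exceeded those at SP 3 days. The log2 fold change was 1.30 ± 0.22 (SE, adjusted p = 0.00593) at 3 h and 2.29 ± 0.23 (SE, adjusted p = 0.000165) at 24 h. It was 3.43 ± 0.09 (SE, adjusted p = 2.13e-12) at 3 days and 3.71 ± 0.09 (SE, adjusted p = 7.53e-13) at 12 days, that is 10.8-fold and 13.1-fold. The call held in each of these 4 comparisons under all alternatives run, apart from the stricter thresholds at 3 h and 24 h.

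SLC2A1 (ENSG00000117394, chromosome 1, 42925353 to 42958893, minus strand), the basal glucose transporter GLUT1, moved much less. SLC2A1 was at 198, 231 and 278 CPM in Control 24 h, 299.6, 325 and 249.6 CPM at SP 3 h and 309, 308 and 316 CPM at SP 24 h. At the later times it was at 147, 143 and 160.2 CPM in Control 3 days, 194, 198 and 217 CPM at SP 3 days and 227, 238 and 166 CPM at SP 12 days. The 24 h and the 3 and 12 days SP libraries lay above their controls, while 1 of the SP 3 h libraries lay within them. The log2 fold changes of 0.31 ± 0.14 (SE, adjusted p = 0.209) and 0.40 ± 0.14 (SE, adjusted p = 0.0578) at 3 h and 24 h did not pass. The 24 h value passed without replicate 3 of Control 24 h or replicate 3 of SP 3 h (0.39 to 0.53). SLC2A1 rose by 0.44 ± 0.11 (SE, adjusted p = 0.00506) at 3 days and 0.48 ± 0.11 (SE, adjusted p = 0.00231) at 12 days, and the GC and length correction ended the 3 days call (0.20). Per length (CPM divided by the kilobases of exon, RPKM), SLC2A3 made up 20.2% ± 2.21 (SD, n = 3) of the summed level of both transporters in Control 3 days, 66.8% ± 2.23 at SP 3 days and 70.4% ± 3.10 at SP 12 days. SLC2A1 was thus the larger share in each control library and SLC2A3 in each SP library at these times, by exon union as by canonical transcript length. In the early experiment the SLC2A3 share went from 10.2% ± 2.26 to 18.1% ± 2.09 and 29.1% ± 4.87, below that of SLC2A1 throughout.

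Hexokinases phosphorylate glucose on entry. HK1 was at 86.0, 84.0 and 90.4 CPM in Control 24 h, 132, 152 and 130.5 CPM at SP 3 h and 167, 177 and 165 CPM at SP 24 h. HK1 (ENSG00000156515, chromosome 10, 69269984 to 69401884, plus strand) was then at 90.8, 87.1 and 107 CPM in Control 3 days, 144, 153 and 167 CPM at SP 3 days and 154, 162 and 122 CPM at SP 12 days. All SP libraries exceeded all controls, and SP 12 days replicate 3 was the lowest of its group. HK1 rose by 0.67 ± 0.09 (SE, adjusted p = 0.00271) at 3 h and 0.97 ± 0.09 (SE, adjusted p = 0.00016) at 24 h on the log2 scale. The late rises were 0.71 ± 0.11 (SE, adjusted p = 6.67e-05) and 0.62 ± 0.11 (SE, adjusted p = 0.000201).

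HK2 (ENSG00000159399, chromosome 2, 74834127 to 74893359, plus strand), the inducible hexokinase of many tumors, stood at a far lower level. HK2 was at 1.54, 1.11 and 1.79 CPM in Control 24 h, 3.24, 3.66 and 2.89 CPM at SP 3 h and 4.77, 3.74 and 4.32 CPM at SP 24 h. It was at 1.91, 1.63 and 1.83 CPM in Control 3 days, 4.94, 3.72 and 3.83 CPM at SP 3 days and 6.89, 6.59 and 7.98 CPM at SP 12 days in the longer experiment. SP and control libraries did not overlap at any time, and all SP 12 days libraries exceeded those of SP 3 days. The log2 fold changes were 1.13 ± 0.22 (SE, adjusted p = 0.00983) and 1.51 ± 0.21 (SE, adjusted p = 0.00094) at 3 h and 24 h. At 3 days the value was 1.21 ± 0.19 (SE, adjusted p = 8.31e-05) and at 12 days 1.99 ± 0.18 (SE, adjusted p = 2.35e-07), a 3.97-fold difference. Even so, HK2 made up 5.49% ± 1.35 of both hexokinases per length at SP 12 days and 2.16% ± 0.221 in its control.

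The phosphofructokinases catalyse the committed step. PFKP was at 812, 671 and 901 CPM in Control 24 h, 921, 848 and 878 CPM at SP 3 h and 957, 815 and 975 CPM at SP 24 h. PFKP, the platelet-type subunit (ENSG00000067057, chromosome 10, 3066333 to 3137718, plus strand), was at 294, 285 and 327 CPM in Control 3 days, 432, 433 and 435 CPM at SP 3 days and 446, 464 and 308 CPM at SP 12 days. The early groups overlapped, the SP 3 days libraries were all above control, and SP 12 days replicate 3 fell inside the control range. PFKP did not pass at 3 h (0.15 ± 0.12 SE, adjusted p = 0.519) or 24 h (0.20 ± 0.12 SE, adjusted p = 0.242). It rose by 0.52 ± 0.12 (SE, adjusted p = 0.0026) at 3 days and 0.43 ± 0.12 (SE, adjusted p = 0.00912) at 12 days. The GC and length correction ended both calls (0.27 and 0.29), and the 12 days call was also lost without replicate 2 of Control 3 days or replicate 1 of SP 12 days (0.33 to 0.38).

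PFKM, the muscle-type subunit, and PFKL, the liver-type subunit, differed little. PFKM was at 60.5, 48.8 and 56.8 CPM in Control 24 h, 68.2, 69.6 and 66.5 CPM at SP 3 h and 76.1, 72.9 and 74.7 CPM at SP 24 h. Later it was at 77.8, 83.5 and 81.3 CPM in Control 3 days, 87.5, 94.4 and 96.9 CPM at SP 3 days and 94.2, 97.1 and 91.0 CPM at SP 12 days. SP libraries lay above control at every time by narrow margins. PFKM did not pass at 3 h (0.30 ± 0.10 SE, adjusted p = 0.0943) and rose by 0.43 ± 0.10 (SE, adjusted p = 0.0124) at 24 h. The late values were 0.20 ± 0.08 (SE, adjusted p = 0.038) and 0.22 ± 0.08 (SE, adjusted p = 0.0242). GC and length correction ended the 3 calls (0.20, 0.05 and 0.12). The 3 days call was further lost without replicate 1 or 3 of Control 3 days, replicate 2 or 3 of SP 3 days or replicate 1 or 2 of SP 12 days (0.17 to 0.20), and the 12 days call without replicate 1 of Control 3 days, replicate 2 of SP 3 days or replicate 1 or 2 of SP 12 days (0.18 to 0.20). Exons of PFKM share 516 bp with SENP1 on the other strand, which fell at 3 days (−0.64) and 12 days (−0.53).

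PFKL was at 103, 119.6 and 127 CPM in Control 24 h, 108, 119 and 104 CPM at SP 3 h and 114, 117 and 114 CPM at SP 24 h. It was at 121, 118 and 145 CPM in Control 3 days, 125, 126 and 133 CPM at SP 3 days and 115, 116 and 124 CPM at SP 12 days at the later times. SP and control libraries overlapped in all 4 comparisons, and PFKL passed in none, with log2 fold changes of −0.08, −0.02, 0.00 and −0.11. After the GC and length correction it was lower in all 4 (−0.40, −0.78, −0.54 and −0.51), each past the threshold, so no direction is given for it. Per length, PFKP was the largest of the 3 subunits in every group, at 60.3% ± 0.577 in Control 3 days and 67.2% ± 0.825 at SP 3 days.

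Among the aldolases, which cleave fructose 1,6-bisphosphate, ALDOC (ENSG00000109107, chromosome 17, 28573115 to 28576948, minus strand) rose. ALDOC was at 1.38, 1.64 and 1.65 CPM in Control 24 h, 1.34, 2.497 and 1.997 CPM at SP 3 h and 6.03, 8.03 and 7.02 CPM at SP 24 h. In the later experiment it was at 6.36, 5.64 and 8.87 CPM in Control 3 days, 17.1, 17.8 and 18.5 CPM at SP 3 days and 10.3, 10.6 and 10.9 CPM at SP 12 days. The SP 3 h libraries overlapped control, and those of the other 3 times lay above. Its log2 fold change was 0.36 ± 0.24 (SE, adjusted p = 0.418) at 3 h and 2.17 ± 0.23 (SE, adjusted p = 0.00022) at 24 h, a 4.51-fold difference. It was 1.35 ± 0.14 (SE, adjusted p = 1.32e-06) at 3 days and 0.61 ± 0.15 (SE, adjusted p = 0.0026) at 12 days, so the excess over control was smaller at the later time.

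ALDOA was at 106, 99.9 and 117 CPM in Control 24 h, 113, 114 and 109 CPM at SP 3 h and 119, 132 and 123 CPM at SP 24 h. ALDOA, the ubiquitous aldolase, was at 73.7, 67.8 and 86.8 CPM in Control 3 days, 75.2, 79.8 and 66.0 CPM at SP 3 days and 71.6, 77.6 and 55.9 CPM at SP 12 days later on. The libraries overlapped in 3 of the 4 comparisons, and at 24 h all SP libraries lay above control. ALDOA did not pass in any, with 0.06, 0.21, −0.05 and −0.16 on the log2 scale, and after the GC and length correction it was lower at 24 h (−0.31), 3 days (−0.37) and 12 days (−0.35), past the threshold. Of its exons, 1639 bp are shared with a same-strand gene (ENSG00000285043), and reads in them may have been left unassigned, so its level is uncertain. As counted, ALDOC made up 11.7% ± 1.16 of both aldolases per length in Control 3 days and 26.2% ± 2.49 at SP 3 days.

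GPI and TPI1 complete the preparatory steps. GPI, which isomerises glucose 6-phosphate, ranged from 1216 to 1469.8 CPM in the early experiment and was at 844 to 1011 CPM in Control 3 days, 702 to 774 at SP 3 days and 555 to 780.4 at SP 12 days. It fell by 0.32 at 3 days (adjusted p = 0.0255) and by 0.44 at 12 days (adjusted p = 0.00397) on the log2 scale. GPI lost the 3 days call without replicate 1 or 3 of Control 3 days or replicate 1 or 2 of SP 3 days (−0.25 to −0.34). TPI1, triose phosphate isomerase, passed in none, with log2 fold changes between −0.14 and −0.02.

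PFKFB3 and PFKFB4 make fructose 2,6-bisphosphate, the activator of phosphofructokinase. PFKFB4 was at 6.83, 6.02 and 9.19 CPM in Control 24 h, 10.8, 14.5 and 12.7 CPM at SP 3 h and 7.12, 8.33 and 8.65 CPM at SP 24 h. PFKFB4 (ENSG00000114268, chromosome 3, 48517684 to 48562015, minus strand) was at 6.55, 5.20 and 8.10 CPM in Control 3 days, 10.2, 11.3 and 12.3 CPM at SP 3 days and 12.4, 13.2 and 14.2 CPM at SP 12 days. It was above control in all libraries at 3 h, 3 days and 12 days and overlapped it at 24 h. PFKFB4 rose by 0.79 ± 0.19 (SE, adjusted p = 0.0254) at 3 h, against 0.12 ± 0.19 (SE, adjusted p = 0.637) at 24 h. Its late rises were 0.77 ± 0.15 (SE, adjusted p = 0.000553) and 1.01 ± 0.15 (SE, adjusted p = 3.9e-05). The 3 h call was lost without replicate 1 or 2 of Control 24 h or replicate 2 or 3 of SP 3 h (0.66 to 0.78). Exons of PFKFB4 share 298 bp with UCN2 on the same strand, which rose at 3 days (2.09) and 12 days (2.17).

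PFKFB3 was at 679, 633 and 786 CPM in Control 24 h, 704, 655 and 535 CPM at SP 3 h and 819.9, 626 and 709.7 CPM at SP 24 h. PFKFB3 was at 623, 616 and 663 CPM in Control 3 days, 464, 463 and 472 CPM at SP 3 days and 404, 455 and 383 CPM at SP 12 days in the longer experiment. The early groups overlapped, and all SP libraries at 3 and 12 days lay below control. Its early log2 fold changes of −0.15 and 0.04 did not pass, the latter being −0.45 and past the threshold after GC and length correction. PFKFB3 was −0.44 ± 0.08 (SE, adjusted p = 0.000367) at 3 days and −0.61 ± 0.08 (SE, adjusted p = 1.64e-05) at 12 days. The pair thus moved in opposite directions at both later times, while PFKFB3 remained at 96.4% or more of their summed level per length in every library.

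**Figure D2:**
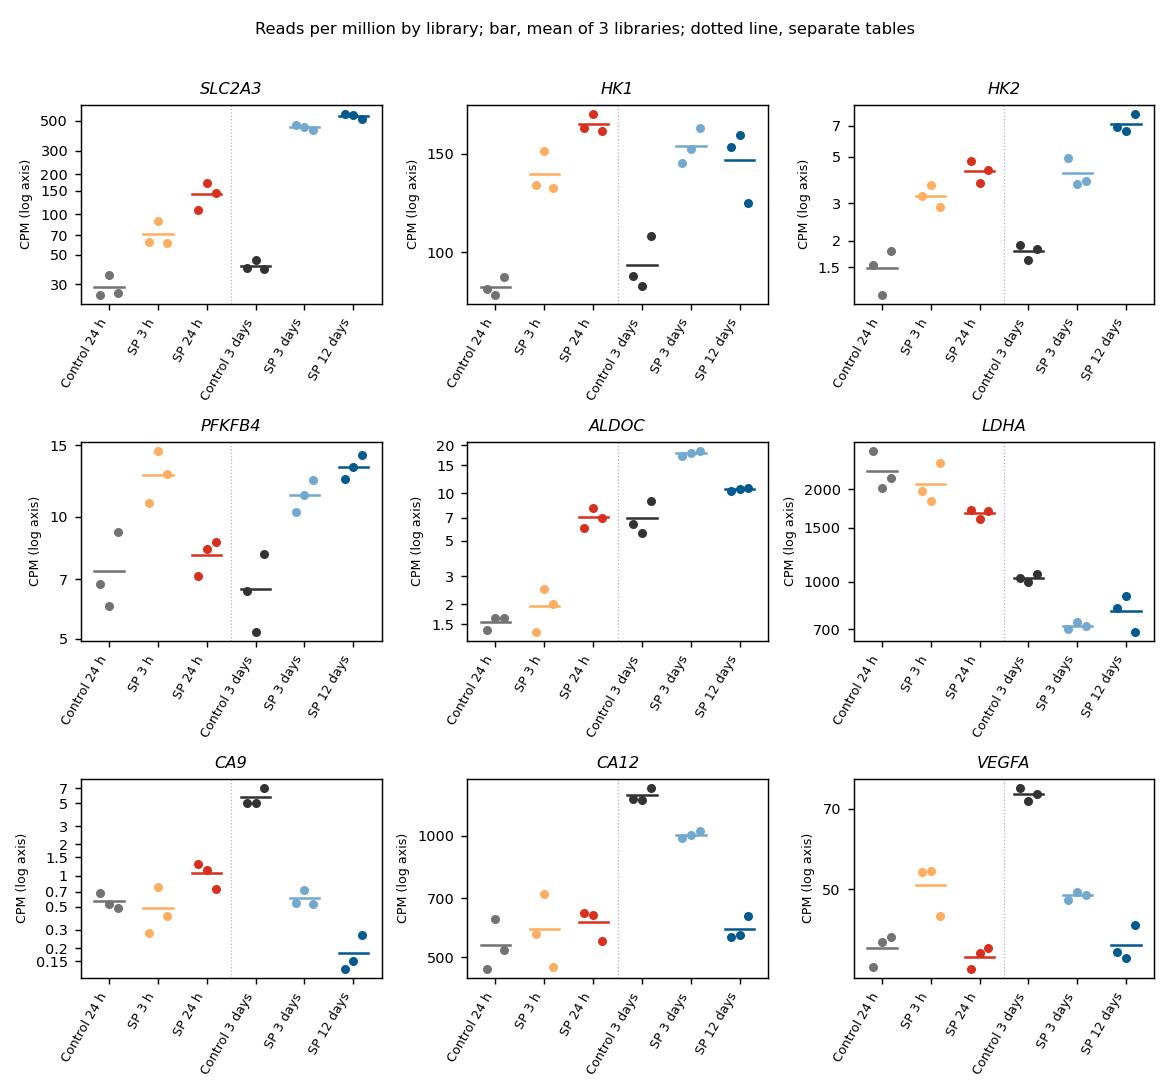
CPM (log axis) of 9 of the genes in each of the 18 libraries, with the group mean as a bar and a dotted line between the 2 separately normalized experiments. SLC2A3, HK1 and HK2 lie above control at all 4 times, and CA9 drops from 4.97 to 7.03 CPM in Control 3 days to 0.126 to 0.266 CPM at SP 12 days.

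The payoff enzymes, which are among the most abundant transcripts of the set, changed little. Over the 5 genes and 4 comparisons, 0 tests found a rise and 3 a fall, beside the shares of all genes given above. ENO1, enolase, was at 3311 to 3872 CPM in Control 24 h and 2621 to 2798 CPM at SP 24 h, with a log2 fold change of −0.36 ± 0.11 (SE, adjusted p = 0.0358). ENO1 lost this call without replicate 1 of Control 24 h, replicate 1 of SP 3 h or any replicate of SP 24 h (−0.32 to −0.39). PGK1, phosphoglycerate kinase, was at 718 to 796 CPM in Control 3 days, 570.2 to 608 CPM at SP 3 days and 472 to 647 CPM at SP 12 days. PGK1 fell by 0.36 (adjusted p = 0.00988) and 0.38 (adjusted p = 0.00644) on the log2 scale. PKM, pyruvate kinase, passed in none, with log2 fold changes from −0.11 to −0.02, but was −0.43 at 24 h and −0.36 at 3 days, past the threshold, after GC and length correction. PGAM1 passed in none, with values from −0.08 to 0.18.

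GAPDH, commonly used as a reference gene, was the most abundant of the 33 per length, at 1049.8 RPKM in Control 3 days and 1489 RPKM in Control 24 h. GAPDH was at 3907, 3392 and 3407 CPM in Control 24 h, 3126, 3143 and 3689 CPM at SP 3 h and 3062, 2978 and 3048 CPM at SP 24 h. It was at 2400.5, 2200.3 and 2945 CPM in Control 3 days, 1867, 2020.0 and 2170.4 CPM at SP 3 days and 2086, 2389 and 1662 CPM at SP 12 days. All SP 24 h and SP 3 days libraries lay below control, and those at 3 h and 12 days overlapped it. The log2 fold changes of −0.24 ± 0.10 (SE, adjusted p = 0.113) at 24 h, −0.32 ± 0.13 (SE, adjusted p = 0.0593) at 3 days and −0.30 ± 0.13 (SE, adjusted p = 0.0734) at 12 days did not pass. DESeq2 called the falls at 3 and 12 days (−0.31 and −0.30), as did edgeR at 3 days without replicate 2 of Control 3 days or replicate 2 or 3 of SP 12 days (−0.32 to −0.41) and at 12 days without replicate 2 of Control 3 days or replicate 2 of SP 12 days (−0.40 to −0.44). GC and length correction gave lower calls at 24 h (−0.61), 3 days (−0.50) and 12 days (−0.37). The annotation lists 65 pseudogenes of GAPDH, 44 of BNIP3, 13 of PGAM1 and 6 of LDHA, which could share reads with their parent genes. It also lists 5 of PKM, 4 each of TPI1 and ENO1, 3 each of SLC2A3 and LDHB, and fewer of some other members.

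In the SP 12 days group, replicate 3 was the lowest of the 3 libraries for all 5 payoff genes and for 21 of the 33 genes (63.6%), against 41.5% of all tested genes. GAPDH, for instance, was at 82.9% and 94.97% of its Control 3 days mean in replicates 1 and 2 and at 66.1% in replicate 3. PGAM1 was at 119.9%, 121% and 81.6%. Reads of mitochondrial genes made up 7.04% of this library and 5.82% to 6.41% of the other two; their part in the result was not tested. Without it, 20 genes passed at 12 days and 25 at 3 days in place of 18 and 21, while the share of all genes that passed went to 54.9% and 57.6%, and PGAM1 passed as higher at 12 days (0.25).

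**Figure D3:**
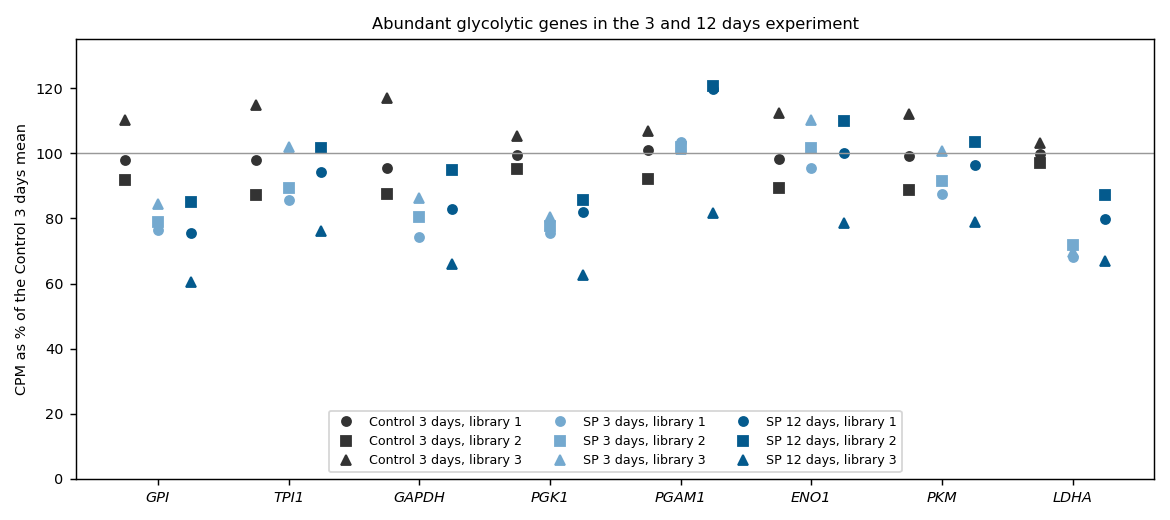
CPM of 8 abundant glycolytic genes in each library of the 3 and 12 days experiment, as a percentage of the gene's Control 3 days mean (line at 100); color gives the group and symbol shape the library number. Library 3 of SP 12 days (dark blue triangles) is the lowest of its group for each gene, and LDHA and PGK1 lie below control in all 6 SP libraries.

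LDHA and LDHB encode the lactate dehydrogenase subunits, LDHA being the hypoxia-inducible one. LDHA was at 2674, 2021 and 2182 CPM in Control 24 h, 1977, 1837 and 2449 CPM at SP 3 h and 1713, 1607 and 1706 CPM at SP 24 h. LDHA (ENSG00000134333, chromosome 11, 18394560 to 18408425, plus strand) was at 1029, 997 and 1062 CPM in Control 3 days, 703, 739.8 and 717 CPM at SP 3 days and 820.1, 898 and 687 CPM at SP 12 days. It was below control in every SP library at 24 h, 3 days and 12 days and overlapped at 3 h. LDHA gave −0.14 ± 0.14 (SE, adjusted p = 0.616) at 3 h and fell to −0.45 ± 0.14 (SE, adjusted p = 0.0359) at 24 h. The late values were −0.52 ± 0.10 (SE, adjusted p = 0.000331) and −0.36 ± 0.09 (SE, adjusted p = 0.00501), a 1.43-fold and a 1.28-fold fall. LDHA lost its 24 h call without replicate 1 of Control 24 h, replicate 1 of SP 3 h or any replicate of SP 24 h (−0.35 to −0.47).

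LDHB was at 144, 114 and 104 CPM in Control 24 h, 105.04, 96.2 and 132 CPM at SP 3 h and 99.2, 83.0 and 91.2 CPM at SP 24 h. LDHB was at 104, 97.4 and 89.7 CPM in Control 3 days, 77.1, 82.9 and 71.2 CPM at SP 3 days and 102, 104.5 and 86.5 CPM at SP 12 days later. Its SP libraries lay below control at 24 h and 3 days and overlapped it at 3 h and 12 days. The early values did not pass (−0.13 ± 0.16 SE, adjusted p = 0.689 and −0.41 ± 0.16 SE, adjusted p = 0.0768), though the 24 h value did without replicate 3 of Control 24 h or replicate 3 of SP 3 h (−0.42 to −0.51). LDHB fell by 0.33 at 3 days (adjusted p = 0.008) and was at 0.01 ± 0.09 (SE, adjusted p = 0.948) at 12 days. The LDHB share of both subunits per length was 16.0% ± 1.25 in Control 3 days, 17.8% ± 0.931 at SP 3 days and 19.8% ± 0.653 at SP 12 days. Exons of LDHB share 997 bp with a same-strand gene (ENSG00000285854), so its level is uncertain.

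PDK1, the pyruvate dehydrogenase kinase of the HIF response, was low throughout. PDK1 was at 7.31, 5.86 and 5.33 CPM in Control 24 h, 7.20, 6.88 and 8.60 CPM at SP 3 h and 6.76, 5.89 and 5.81 CPM at SP 24 h. It was at 7.56, 9.15 and 8.04 CPM in Control 3 days, 11.3, 9.69 and 9.81 CPM at SP 3 days and 9.67, 8.33 and 8.29 CPM at SP 12 days. The SP 3 days libraries were above control, and the other groups overlapped. PDK1 passed in none of the 4 comparisons, with 0.30 ± 0.17 (SE, adjusted p = 0.31), −0.00, 0.32 ± 0.13 (SE, adjusted p = 0.0545) and 0.09 on the log2 scale, in order of time. The 3 days value passed without replicate 2 of Control 3 days or replicate 3 of SP 12 days (0.32 to 0.39).

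Of the 10 hypoxia-inducible effectors, 1 rose and 1 fell at 3 h, 3 rose and 1 fell at 24 h, 5 rose and 3 fell at 3 days, and 2 rose and 3 fell at 12 days. Of all genes, 7.39% rose and 4.11% fell at 3 h, and 16.8% and 12% at 24 h. The shares were 25.2% and 23.3% at 3 days and 26.4% and 23.4% at 12 days. CA9 (ENSG00000107159, chromosome 9, 35673928 to 35681159, plus strand), a membrane carbonic anhydrase used as a marker of hypoxia, showed the largest fall. CA9 was at 0.688, 0.528 and 0.491 CPM in Control 24 h, 0.282, 0.778 and 0.408 CPM at SP 3 h and 1.29, 1.14 and 0.743 CPM at SP 24 h. In the longer experiment it was at 4.97, 5.08 and 7.03 CPM in Control 3 days, 0.549, 0.731 and 0.538 CPM at SP 3 days and 0.126, 0.150 and 0.266 CPM at SP 12 days. All SP libraries at 3 and 12 days lay far below control, and those at 24 h lay above it. The CA9 reads behind these values were 104, 81 and 119 in Control 3 days, 9, 12 and 9 at SP 3 days and 2, 3 and 6 at SP 12 days, so the later levels rest on few reads. The log2 fold changes were −3.22 ± 0.26 (SE, adjusted p = 7.98e-08) at 3 days and −4.87 ± 0.31 (SE, adjusted p = 4.72e-09) at 12 days, a 9.29-fold and a 29.2-fold fall. At 3 h (−0.10 ± 0.41 SE, adjusted p = 0.921) and 24 h (0.91 ± 0.37 SE, adjusted p = 0.0936) CA9 did not pass. Of its 1598 bp of exons, 571 bp overlap ARHGEF39 on the other strand, which fell by 0.85 at 3 days and 1.29 at 12 days.

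CA12 (ENSG00000074410, chromosome 15, 63321378 to 63381846, minus strand), the related carbonic anhydrase, was abundant. CA12 was at 468, 621 and 521 CPM in Control 24 h, 570.5, 715 and 473 CPM at SP 3 h and 642, 637 and 548 CPM at SP 24 h. It was at 1232, 1227 and 1313 CPM in Control 3 days, 984, 1003 and 1028 CPM at SP 3 days and 562, 566 and 630.5 CPM at SP 12 days. The early groups overlapped, while SP 3 days and SP 12 days lay below control and apart from each other. CA12 did not pass at 3 h (0.13) or 24 h (0.18). It was −0.32 ± 0.08 (SE, adjusted p = 0.00393) at 3 days and −1.10 ± 0.08 (SE, adjusted p = 2.78e-08) at 12 days, a 2.14-fold fall. CA9 was at most 2.29% of the summed per-length level of both in any library.

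VEGFA, the angiogenic growth factor, fell at the same times. VEGFA was at 36.2, 40.1 and 41.0 CPM in Control 24 h, 53.7, 54.1 and 44.8 CPM at SP 3 h and 35.9, 38.3 and 39.1 CPM at SP 24 h. VEGFA was at 76.3, 72.3 and 74.2 CPM in Control 3 days, 47.9, 49.5 and 48.9 CPM at SP 3 days and 38.5, 37.5 and 43.1 CPM at SP 12 days. All SP 3 h libraries were above control, those at 24 h overlapped it, and those at 3 and 12 days were below. At 3 h the value of 0.38 ± 0.11 (SE, adjusted p = 0.0574) did not pass in edgeR, and it did in DESeq2 and without replicate 3 of SP 3 h (0.46). At 24 h it was −0.05, but −0.40 and past the threshold after GC and length correction. VEGFA was −0.61 ± 0.08 (SE, adjusted p = 1.41e-05) at 3 days and −0.90 ± 0.08 (SE, adjusted p = 1.97e-07) at 12 days.

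EGLN3, a HIF prolyl hydroxylase that is itself induced by HIF, was at 12.9 to 15.3 CPM in Control 3 days, 26.0 to 26.6 CPM at SP 3 days and 18.7 to 26.2 CPM at SP 12 days, with no overlap. Its log2 fold changes were 0.91 ± 0.13 (SE, adjusted p = 2.24e-05) and 0.63 ± 0.13 (SE, adjusted p = 0.000659), after 0.70 ± 0.19 (SE, adjusted p = 0.0232) at 24 h. EGLN3 lost the 24 h call without replicate 1 of Control 24 h or replicate 1 or 2 of SP 24 h (0.59 to 0.65). ADM, the vasoactive peptide adrenomedullin, was at 31.6 to 34.0 CPM in Control 3 days, 48.3 to 49.9 CPM at SP 3 days and 33.1 to 36.2 CPM at SP 12 days, so that the excess at 3 days was not there at 12 days. ADM rose by 0.60 ± 0.08 (SE, adjusted p = 1.92e-05) at 3 days against 0.08 ± 0.08 (SE, adjusted p = 0.449) at 12 days. At 24 h it was 0.47 ± 0.15 (SE, adjusted p = 0.0454), a call lost after GC and length correction (0.04) and without replicate 1 or 2 of Control 24 h, any replicate of SP 3 h or any replicate of SP 24 h (0.33 to 0.56).

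NDRG1, a stress- and hypoxia-induced gene, was at 38.6 to 43.6 CPM in Control 24 h, 66.6 to 80.5 CPM at SP 3 h and 57.9 to 64.9 CPM at SP 24 h, with no overlap. It rose by 0.79 ± 0.11 (SE, adjusted p = 0.00263) at 3 h and 0.54 ± 0.11 (SE, adjusted p = 0.00602) at 24 h, the latter call ending with GC and length correction (0.13). At 3 days the rise was 0.26 ± 0.08 (SE, adjusted p = 0.014), which that correction brought to −0.00365. NDRG1 also lost the 3 days call without replicate 1 or 2 of Control 3 days or replicate 3 of SP 3 days (0.21 to 0.24), and at 12 days it was at −0.04. ANKRD37, at 1.13 to 2.24 CPM in the early experiment, was the 1 effector that fell there, by 0.71 at 3 h (adjusted p = 0.0472) and 0.70 at 24 h (adjusted p = 0.0222). The 3 h call of ANKRD37 was lost when any 1 of the 9 libraries was left out (−0.64 to −0.79), and the 24 h call without replicate 1 of Control 24 h or replicate 1 or 2 of SP 24 h (−0.63 to −0.70). Nor was ANKRD37 called lower at 3 h by DESeq2, without the filter, with the replicate block or with only the 2 groups compared. Exons of ANKRD37 share 909 bp with UFSP2 on the other strand.

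P4HA1, a collagen prolyl hydroxylase subunit, rose by 0.37 ± 0.08 (SE, adjusted p = 0.00168) at 3 days and 0.34 ± 0.08 (SE, adjusted p = 0.00264) at 12 days. It was at 34.6 to 38.7 CPM in Control 3 days, 44.7 to 49.6 CPM at SP 3 days and 45.9 to 47.6 CPM at SP 12 days, with no overlap with control. The 24 h value of 0.28 did not pass, and did after GC and length correction (0.54). BNIP3 and BNIP3L are mitophagy receptors. BNIP3L was at 83.4 to 95.01 CPM in Control 3 days and 104.9 to 118 CPM at SP 3 days, a rise of 0.33 ± 0.08 (SE, adjusted p = 0.00252), and did not pass at 12 days (0.11). Exons of BNIP3L share 330 bp with PNMA2 on the other strand, which rose at 3 days (0.75). BNIP3 passed in none, with log2 fold changes from −0.15 to 0.12.

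The HIF alpha subunits are controlled mainly by protein stability, so transcript levels report only part of their activity. HIF1A was at 417, 386 and 233 CPM in Control 24 h, 309, 285 and 390.4 CPM at SP 3 h and 567, 477 and 354 CPM at SP 24 h. HIF1A (ENSG00000100644, chromosome 14, 61695513 to 61748259, plus strand) was at 608, 693 and 606 CPM in Control 3 days, 743, 727 and 713 CPM at SP 3 days and 871, 848 and 766 CPM at SP 12 days. Early libraries overlapped and varied widely, and SP libraries at 3 and 12 days lay above control. HIF1A passed at 12 days (0.38 ± 0.09 SE, adjusted p = 0.00156) and not at 3 h (−0.07 ± 0.24 SE, adjusted p = 0.897), 24 h (0.43 ± 0.24 SE, adjusted p = 0.206) or 3 days (0.20 ± 0.09 SE, adjusted p = 0.0697). The 3 days value passed without replicate 2 of Control 3 days or replicate 3 of SP 12 days (0.19 to 0.26), and the 24 h value after GC and length correction (0.73).

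EPAS1 was at 118, 143 and 219 CPM in Control 24 h, 208, 250.3 and 155 CPM at SP 3 h and 239, 231 and 233 CPM at SP 24 h. EPAS1, which encodes HIF-2α, was at 198, 212 and 219 CPM in Control 3 days, 232, 223 and 247 CPM at SP 3 days and 246, 246 and 205 CPM at SP 12 days. All SP 24 h and SP 3 days libraries exceeded control, and those at 3 h and 12 days overlapped it. EPAS1 passed in none, at 0.35 ± 0.23 (SE, adjusted p = 0.394) and 0.55 ± 0.23 (SE, adjusted p = 0.103) early and 0.16 ± 0.09 (SE, adjusted p = 0.148) and 0.15 ± 0.09 (SE, adjusted p = 0.167) late. Without Control 24 h replicate 3, in which EPAS1 was highest and HIF1A lowest of the controls, it passed at 3 h (0.65) and 24 h (0.84). Without SP 12 days replicate 3 it passed at 3 days (0.15) and 12 days (0.21). Per length HIF1A was the larger of the 2 in every group.

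SP times were also compared directly. Between 24 h and 3 h, 2 genes were higher at 24 h and 2 lower (12.1% of the 33, against 20.1% of all genes, 11.7% higher and 8.4% lower), or 4 and 4 after GC and length correction (11.3% and 15.6% of all genes). Libraries did not overlap for 16 of them, against 44.9% of all genes, and 0 met the stricter thresholds, against 0.0288%, all of them higher. ALDOC was higher at 24 h by 1.82 ± 0.22 (SE, adjusted p = 0.0011) and SLC2A3 by 1.00 ± 0.22 (SE, adjusted p = 0.0131). PFKFB4 was lower by 0.66 (adjusted p = 0.0335) and VEGFA by 0.43 (adjusted p = 0.0253). The SLC2A3 call was lost without replicate 1 or 3 of SP 3 h or replicate 2 of SP 24 h (0.83 to 0.90). PFKFB4 lost its call without replicate 2 or 3 of SP 3 h or any replicate of SP 24 h (−0.55 to −0.71). That of VEGFA was lost without replicate 1 or 2 of SP 3 h or any replicate of SP 24 h (−0.38 to −0.45). Leaving out SP 3 h replicate 2 added CA9 (1.55) and HK1 (0.37).

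Between 12 and 3 days of SP, 9 genes passed (27.3% of the 33, against 8.1% of all genes, 4.46% higher and 3.65% lower), 3 higher and 6 lower at 12 days, or 2 and 5 after GC and length correction (5.13% and 3.55% of all genes). Libraries did not overlap for 15, against 26.8% of all genes, and 0 met the stricter thresholds, against 0.18% (0.152% higher and 0.0281% lower). Higher were HK2 (0.78 ± 0.16 SE, adjusted p = 0.0081), LDHB (0.34 ± 0.09 SE, adjusted p = 0.0356) and SLC2A3 (0.28 ± 0.08 SE, adjusted p = 0.0488). Lower were CA9 (−1.66 ± 0.44 SE, adjusted p = 0.0303), CA12 (−0.78 ± 0.08 SE, adjusted p = 4.63e-05) and ALDOC (−0.75 ± 0.14 SE, adjusted p = 0.00337). ADM (−0.52 ± 0.08 SE, adjusted p = 0.0011), NDRG1 (−0.30 ± 0.08 SE, adjusted p = 0.0336) and VEGFA (−0.30 ± 0.08 SE, adjusted p = 0.0357) were lower as well, so 5 of the 10 hypoxia effectors were lower and 0 higher at 12 days. The calls of ADM, ALDOC and CA12 held without each library in turn. HK2 lost its call without replicate 2 or 3 of SP 3 days (0.70 to 0.71), and CA9 without any replicate of SP 3 days or replicate 1 or 2 of SP 12 days (−1.51 to −1.75). LDHB lost it without replicate 1 or 2 of Control 3 days, any replicate of SP 3 days or replicate 1 or 2 of SP 12 days (0.27 to 0.39). SLC2A3, NDRG1 and VEGFA lost theirs without Control 3 days replicate 1, any replicate of SP 3 days, or SP 12 days replicate 1 or 2, with 0.23 to 0.29, −0.28 to −0.34 and −0.27 to −0.32. GC and length correction ended the calls of LDHB (0.28), VEGFA (−0.20) and NDRG1 (−0.18). Leaving out SP 12 days replicate 3 raised the count from 9 to 14, adding EGLN3 (−0.47), BNIP3L (−0.24), LDHA (0.24), HIF1A (0.23) and PGAM1 (0.22), while the share of all genes that passed went from 8.1% to 28.1%.

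Beyond the 33 genes, 70 further genes of oxygen sensing, hypoxia response and glucose use were listed, of which 61 were tested in the early experiment and 60 in the later one. At 3 h, 12 rose and 2 fell, and at 24 h 18 rose and 7 fell. At 3 days 20 rose and 13 fell, and at 12 days 25 rose and 14 fell. These are 23.0%, 41.0%, 55.0% and 65.0% of those tested, beside the shares of all genes given above. After GC and length correction 12 and 3, 17 and 9, 18 and 17, and 24 and 16 were higher and lower, beside the shares of all genes under that correction given above. With the replicate block, 18 rose and 5 fell at 24 h (16.6% and 12.4% of all genes), and 22 of the 25 calls were shared. Among 26 other hypoxia-inducible genes, 8, 10, 13 and 13 rose and 1, 2, 5 and 6 fell at the 4 successive times, with a median log2 fold change of 0.36, 0.34, 0.36 and 0.37. Among 24 and 23 tested isozymes and branch points of glucose use, 3, 7, 5 and 8 rose and 1, 3, 6 and 7 fell. Of 11 genes of oxygen sensing, 1, 1, 2 and 4 rose and 0, 2, 2 and 1 fell. Beside each of these lists, 7.39%, 16.8%, 25.2% and 26.4% of all genes rose at the successive times. Those that fell were 4.11%, 12%, 23.3% and 23.4%. The median log2 fold change over all genes was 0.00, −0.01, −0.02 and −0.00.

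Named below are, at each time, up to 4 that passed with the largest change among those with a mean of at least 100 reads in either group. SLC16A3, the lactate exporter MCT4, rose most of these at 24 h, 3 days and 12 days. SLC16A3 was at 45.9, 55.3 and 56.1 CPM in Control 24 h, 107, 119 and 91.2 CPM at SP 3 h and 466, 453 and 462 CPM at SP 24 h. It was at 121, 118 and 127 CPM in Control 3 days, 453, 465 and 431 CPM at SP 3 days and 447, 417 and 489 CPM at SP 12 days. SP exceeded control in every library at every time. Its log2 fold changes were 1.01 ± 0.12 (SE, adjusted p = 0.00146) at 3 h and 3.13 ± 0.13 (SE, adjusted p = 3.07e-06) at 24 h, an 8.78-fold difference. They were 1.88 ± 0.08 (SE, adjusted p = 1.35e-10) at 3 days and 1.89 ± 0.08 (SE, adjusted p = 1.27e-10) at 12 days. Exons of SLC16A3 share 482 bp with CSNK1D on the other strand. LDHD, the mitochondrial D-lactate dehydrogenase, rose by 1.95 ± 0.26 (SE, adjusted p = 0.000756) at 24 h, 1.36 ± 0.12 (SE, adjusted p = 2.17e-07) at 3 days and 1.41 ± 0.12 (SE, adjusted p = 1.12e-07) at 12 days. PDK4, a pyruvate dehydrogenase kinase, was at 14.5 to 31.2 CPM in Control 24 h and 45.7 to 79.8 CPM at SP 24 h, a rise of 1.47 ± 0.32 (SE, adjusted p = 0.00941).

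With no limit on reads, 5 of the further genes passed with a rise of at least 2-fold at 3 h and 1 with a fall. At 24 h, 7 and 1 did. These counts have no background, since the share of all genes under this rule was not computed. At 3 h the 4 largest changes among those with a mean of at least 100 reads were rises, in ANGPTL4, an inhibitor of lipoprotein lipase (1.89 ± 0.25 SE, adjusted p = 0.00213), the MYC antagonist MXI1 (1.51 ± 0.15 SE, adjusted p = 0.000822), the small GTPase RAB20 (1.50 ± 0.23 SE, adjusted p = 0.00358) and the transcription factor NFIL3 (1.16 ± 0.15 SE, adjusted p = 0.00188). RAB20 was again among the largest at 24 h (1.38 ± 0.23 SE, adjusted p = 0.00206). Their SP libraries all lay above control.

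The falls among the named genes stood at the later times. DDIT4, a stress-induced inhibitor of mTORC1, was at 384, 369.8 and 413 CPM in Control 3 days, 126, 132 and 139.6 CPM at SP 3 days and 107, 109 and 131 CPM at SP 12 days. All SP libraries lay below control. DDIT4 fell to −1.56 ± 0.09 (SE, adjusted p = 2.21e-09) at 3 days and −1.75 ± 0.09 (SE, adjusted p = 6.32e-10) at 12 days. PCK2, mitochondrial phosphoenolpyruvate carboxykinase, was at 108, 115 and 126 CPM in Control 3 days, 45.6, 50.03 and 51.8 CPM at SP 3 days and 34.5, 35.1 and 37.3 CPM at SP 12 days. It was likewise below control in every SP library, with log2 fold changes of −1.24 ± 0.09 (SE, adjusted p = 1.25e-08) and −1.70 ± 0.09 (SE, adjusted p = 4.8e-10). STC2, a secreted stanniocalcin, fell to −1.29 ± 0.12 (SE, adjusted p = 5.14e-07) at 3 days.

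**Figure D4:**
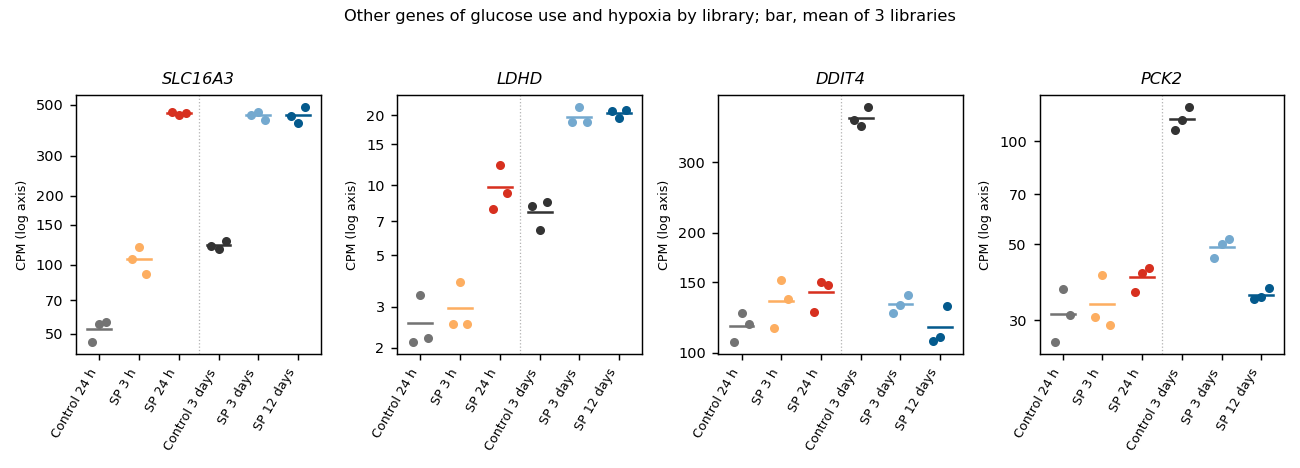
CPM (log axis) of SLC16A3, LDHD, DDIT4 and PCK2 in each of the 18 libraries, with the group mean as a bar and a dotted line between the 2 separately normalized experiments. SLC16A3 goes from 45.9 to 56.1 CPM in Control 24 h to 453 to 466 CPM at SP 24 h, and DDIT4 from 370 to 413 CPM in Control 3 days to 107 to 140 CPM with SP.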

How the data were processed

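RNA was sequenced in 18 libraries. The authors deposited raw read counts per gene in 2 tables, one per experiment, made with STAR 2.7.9a on GRCh38, release 105, and featureCounts. Use of strand and of multiply mapped reads is not given in the sources used here, so reads of overlapping genes may be mixed. Each table was analysed on its own.

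Groups followed the labels. Genes were filtered (filterByExpr, minimum count 10), scaled by TMM and tested with a robust quasi-likelihood fit over the 9 libraries of a table (edgeR 4.0.16, R 4.3.3), two-sided, with Benjamini-Hochberg adjustment over the 17775 or 17377 genes tested. CPM are reads per 1000000 of TMM-scaled library size. Log2 fold changes had a median SE of 0.13 in the 3 and 12 days table and 0.20 in the other. The code was tested on simulated data.

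Members and lists were chosen with earlier results of these data known. Values in every library are given for members that passed with a fold of at least 2 against control, HIF1A and EPAS1, SLC2A1, HK2, PFKP, LDHA and PDK1, and the isozyme partners of these. GAPDH and VEGFA were added after their values were seen. Of 70 other genes, up to 4 per comparison are named by size of change, of which 1 result is not reported here. Alternatives were DESeq2 1.42.0, its size factors, no filter, only the 2 groups compared, a replicate block, offsets for GC content and exonic length (GENCODE v44), the study's thresholds, leaving out each library and, chosen after seeing the data, canonical transcript length for levels per length. Deviations of same-numbered libraries correlated at 0.50, 0.17 and 0.50 at 24 h, where unlike numbers reached 0.175. At 3 h, against the same controls, the highest correlations were between unlike numbers (0.576 and 0.519), and number 3 gave −0.592. At 3 and 12 days no correlation exceeded 0.162. The numbers therefore do not settle whether the 24 h libraries are paired, and the block is an alternative only. The values given are from the fit without the block, and the block is given beside a 24 h result where it changed a call.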

Additional observations from a re-analysis of the deposited data

Results flagged for a closer look

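The SP times differed by a direct test for 9 of the 33 genes at 12 days against 3 days. On the log2 scale HK2 was higher at 12 days by 0.78, LDHB by 0.34 and SLC2A3 by 0.28. CA9 was lower, at −1.66, as were CA12 at −0.78, ALDOC at −0.75, ADM at −0.52, NDRG1 at −0.30 and VEGFA at −0.30. At 24 h against 3 h, ALDOC was higher by 1.82 and SLC2A3 by 1.00, while PFKFB4 was at −0.66 and VEGFA at −0.43. Of the named genes outside the set, SLC16A3 (2.12), LDHD (1.71) and PDK4 (1.49) were higher and MXI1 (−0.59) lower at 24 h than at 3 h, and STC2 (0.52) was higher and PCK2 (−0.46) lower at 12 days than at 3 days.

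Opposite sides of control were looked for in the 33 genes and the named genes outside the set. In 5 of them, an SP group lay wholly above control in one experiment and wholly below it in the other. The share of all genes that did so was not computed, so this count has no background. NFIL3, DDIT4 and STC2 had been named for the size of their change. These differences between experiments were not tested, since the experiments have separate controls and were counted apart. CA9 was at 0.91 at 24 h, −3.22 at 3 days and −4.87 at 12 days. VEGFA was at 0.38 at 3 h, −0.61 at 3 days and −0.90 at 12 days. NFIL3 was at 1.16 at 3 h, 0.93 at 24 h and −0.24 at 12 days. DDIT4 was at 0.28 at 24 h (past the threshold only with the replicate block, among the fits run), −1.56 at 3 days and −1.75 at 12 days. STC2 was at 0.57 at 3 h, 0.88 at 24 h, −1.29 at 3 days and −0.77 at 12 days. The early values of CA9 and VEGFA did not pass the threshold. No group of 3 libraries is large enough for a test of single outlying libraries.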

How the results depend on the processing

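Under the study's thresholds the counts of called members were 0 at 3 h, 0 at 24 h, 4 at 3 days, 5 at 12 days, 0 at 24 h against 3 h and 0 at 12 against 3 days, and those of the other pathway genes 0, 1, 10 and 9. The background of these calls is given above. Offsets for GC content and length gave 19 members at 24 h, also with the replicate block, and 8 at 24 h against 3 h, again with the block. With these offsets 38.9% of all genes passed at 24 h (41.8% with the block) and 26.9% at 24 h against 3 h (31.8%). These offsets reversed NDRG1 at 3 days (−0.00365, or −0.00419 with the block). Fitting only the 2 groups compared gave 5 members at 12 against 3 days and 9 other genes at 3 h. In these fits 5.44% and 6.02% of all genes passed. Leaving out each library gave 4 to 6 members at 3 h, 6 to 14 at 24 h, 18 to 25 at 3 days, 16 to 20 at 12 days, 1 to 4 at 24 h against 3 h and 3 to 14 at 12 against 3 days. The share of all genes that passed then was 5.28% to 12.4% at 3 h, 15.8% to 37.1% at 24 h and 40.1% to 57.6% at 3 days. It was 42% to 54.9% at 12 days, 9.73% to 24.7% at 24 h against 3 h and 3.04% to 28.1% at 12 against 3 days. At 24 h the count was 6 without Control 24 h replicate 1 or SP 24 h replicate 1 or 2, and 14 without Control 24 h replicate 3. Of all genes, 19.6%, 23% and 15.8% passed in the fits with 6, in that order, and 37.1% in the other. For the other genes leaving out each library gave 8 to 14, 18 to 27, 31 to 40 and 33 to 40, beside the same shares. Over the 198 tests of members, 192 kept direction and call with DESeq2 and 159 with the offsets. The replicate block kept the 11 member calls at 24 h and gave 23 in place of 25 calls of other genes there (22 shared). With the block 29% of all genes passed at 24 h. It gave 5, 21 and 18 member calls at 3 h, 3 days and 12 days, where 11%, 49.6% and 51% of all genes passed. Whether libraries of the same number are paired is not known. The cause of these changes was not tested.

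The depth limits low genes most, CA9 above all, with 2 to 6 reads a library at SP 12 days. Scaling is relative to all genes, so a shift common to most genes would not show. Groups of 3 libraries leave the smaller early changes unresolved.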
